A study of Mus musculus with 8 samples.

Results

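Dystrophin, its paralog utrophin, dystroglycan, sarcospan and the sarcoglycans were followed in RNA of the left ventricle of mice. The members were the 8 genes Dmd, Utrn, Dag1, Sgca, Sgcb, Sgcd, Sgce and Sspn, chosen by gene symbol, of 14578 genes in the deposited table. The members have 26 of its 33027 transcripts. All 8 genes and 25 of the 26 transcripts passed the filter on low values, which kept 13783 genes and 29021 transcripts. Dmd-202 was the transcript that did not pass.

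There were 2 libraries of wild-type mice (WT 1 and 2), 3 of mdx mice and 3 of mdx sln+/- mice, all from a C57 background and 6 months old. The mdx mouse carries a nonsense mutation of Dmd and models Duchenne muscular dystrophy, and mdx sln+/- mice carry it too, with 1 functional allele of Sln, which encodes the calcium pump inhibitor sarcolipin. The labels name neither the mdx allele nor how the Sln allele was made, Sln itself was not analysed here, and the labels do not say which libraries were separate animals. The p-values therefore measure the spread between these samples, which may be technical.

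Dystrophin links the actin cytoskeleton of a muscle cell to the surrounding matrix through a complex in its membrane. Dystroglycan, made from Dag1, binds laminin outside the cell and dystrophin inside it, and the sarcoglycans and sarcospan hold this axis together. Utrophin resembles dystrophin and can bind the same partners. In muscle that lacks dystrophin, proteins of the complex are known to be lost from the membrane, a change that RNA levels need not show.

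Dmd gives products of different length from separate promoters, and the files list both the full-length muscle form and the short form known as Dp71. The gene (Dmd, ENSMUSG00000045103) spans bases 82948870 to 85206141 of chromosome X on the plus strand (GRCm38/mm10, GENCODE M21, as are all transcript positions here), 2257.3 kb in all. Dmd-203, the full-length form, has 79 exons and a coding length of 11034 bases. Dmd-201, the short form, has 18 exons and a coding length of 1851 bases, and its first base lies 2099510 bases after that of Dmd-203. The 2 promoters are shown because the values assigned to both transcripts were lower in the mutants, although they start far apart. Each window is the 250 bases before a RefSeq start (GRCm38.p6), on the plus strand at chrX:82948620-82948869 and chrX:85048045-85048294. Capitals mark matches to an E-box (CANNTG), a CArG box or a GC box (GGGCGG), searched on both strands.
Upstream of Dmd-203: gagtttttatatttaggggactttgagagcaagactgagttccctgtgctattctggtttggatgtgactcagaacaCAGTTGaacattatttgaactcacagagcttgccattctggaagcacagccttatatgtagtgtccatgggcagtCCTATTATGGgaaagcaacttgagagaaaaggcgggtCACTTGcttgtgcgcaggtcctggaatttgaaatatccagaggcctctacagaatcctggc
Upstream of Dmd-201: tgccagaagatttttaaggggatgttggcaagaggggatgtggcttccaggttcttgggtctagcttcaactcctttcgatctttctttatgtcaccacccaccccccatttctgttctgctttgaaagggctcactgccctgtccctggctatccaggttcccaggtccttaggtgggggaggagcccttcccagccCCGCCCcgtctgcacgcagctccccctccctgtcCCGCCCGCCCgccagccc

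The window before Dmd-203 had a GC content of 45.2% and held 2 E-boxes, 173 and 61 bases before the start, and 1 CArG box 98 bases before it. It held 0 GC boxes. The window before Dmd-201 had a GC content of 60.0% and held 3 GC boxes, 52, 18 and 14 bases before the start, of which the last 2 overlap. It held 0 E-boxes and 0 CArG boxes. Over 32851 mouse promoter windows of this length, 66.2% held an E-box, 1.5% a CArG box and 32.7% a GC box. The matches describe the letters only.

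The coding sequences of Dmd-201 and Dmd-203 differ where they enter their common part, and nearly all of Dmd-201 lies within Dmd-203. In the 2 stretches below, capitals mark the 20 coding bases that are not shared and lower case the first 39 shared ones, which begin exon 63 of Dmd-203. The Dmd-201 stretch starts at its start codon (genomic bases 85048440 to 85054009, spliced), and the Dmd-203 stretch at coding position 9184 (84974746 to 85054009, spliced).
Dmd-201: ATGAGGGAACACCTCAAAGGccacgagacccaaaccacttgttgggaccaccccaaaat
Dmd-203: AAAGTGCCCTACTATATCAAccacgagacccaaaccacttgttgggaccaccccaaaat

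Of the 4438 exonic bases of Dmd-201, 98.9% are exonic in Dmd-203 too, while 62.2% of Dmd-203 lies in no other listed transcript. Reads from the shared exons could be assigned to either form, so the level of Dmd-201 is uncertain, and a difference between the forms rests on how reads were assigned.

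The values are log2 abundances, given below as the mean of the r1 and r2 columns of a library, and a gene sum is the log2 of the added linear abundances plus 1. Changes are log2 differences on this scale, which understates changes of low genes, with limma's standard error after ±. Folds and percent changes are of the abundance plus 1, while percentages of a gene sum are of the abundance itself. A change was called at a Benjamini-Hochberg adjusted p under 0.05 over all genes or transcripts tested. Whether abundances were divided by length is not given, so levels are not ranked between genes. Depth is unknown because the table holds no counts. In ventricle tissue, fewer cells of a type and less RNA per cell cannot be told apart.

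Markers of cardiomyocytes summed to linear abundances of 39253 to 39735 in WT, of 42302 to 46209 in mdx and of 42129 to 44981 in the mdx sln+/- libraries, with 0 of 6 called in any comparison. Those of macrophages summed to 56.0 to 61.8, 73.8 to 91.4 and 76.9 to 90.6, with 2 of 5 higher than WT in each mutant group. Endothelial markers summed to 401 to 515 in WT, 515 to 597 in mdx and 532 to 586 in mdx sln+/-, with 1 of 5 (Emcn) higher in each mutant group. Fibroblast markers summed to 490 to 567, 545 to 603 and 535 to 592, with 1 of 5 (Col1a1) higher in each. Smooth muscle and pericyte markers summed to 540 to 542, 580 to 776 and 575 to 723, with 0 of 6 called. These sums follow the most abundant genes. The median change of the 6 was -0.12 in mdx and -0.53 in mdx sln+/-, with 3 and 4 of them below 0. Of 6 skeletal muscle markers 2 were tested, Ckm, which was not called, and Acta1, which was lower in each mutant group. The rest of this list was absent from the deposited values, so it says little about skeletal muscle. Of 4 nerve markers 1 was tested and not called, and 4 adipocyte markers were not analysed here. The Y-linked gene Eif2s3y had log2 levels of 0.92 in WT 2 and 1.31 in mdx sln+/- 3, and 3.29 to 6.11 in the other 6 libraries. The labels give no sex. A contrast removed before deposit ties the levels of mdx 2 and mdx sln+/- 2 to those of the other mutants. These levels therefore do not settle how the mutant libraries differ in this gene. The part of these differences in the results below was not tested. Many results that depend on WT 2 or mdx sln+/- 3, though not all, are also given without them.

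Between mdx and WT, 2 of the 8 members fell, Dmd and the delta-sarcoglycan gene Sgcd, and 0 rose. Over all genes tested, 15.1% were called in this comparison, 8.15% higher and 6.94% lower. The members' median change was -0.14, against 0.020 over all genes. The libraries of the 2 groups did not overlap for 4 members, Dmd, Dag1, Sgcb and Sgcd, all lower in mdx, and 51.4% of all genes were separated in this way (27.8% higher, 23.6% lower), so 4 of 8 is near the share among all genes. Dmd was the member with the largest difference between the groups.

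**Figure D1:**
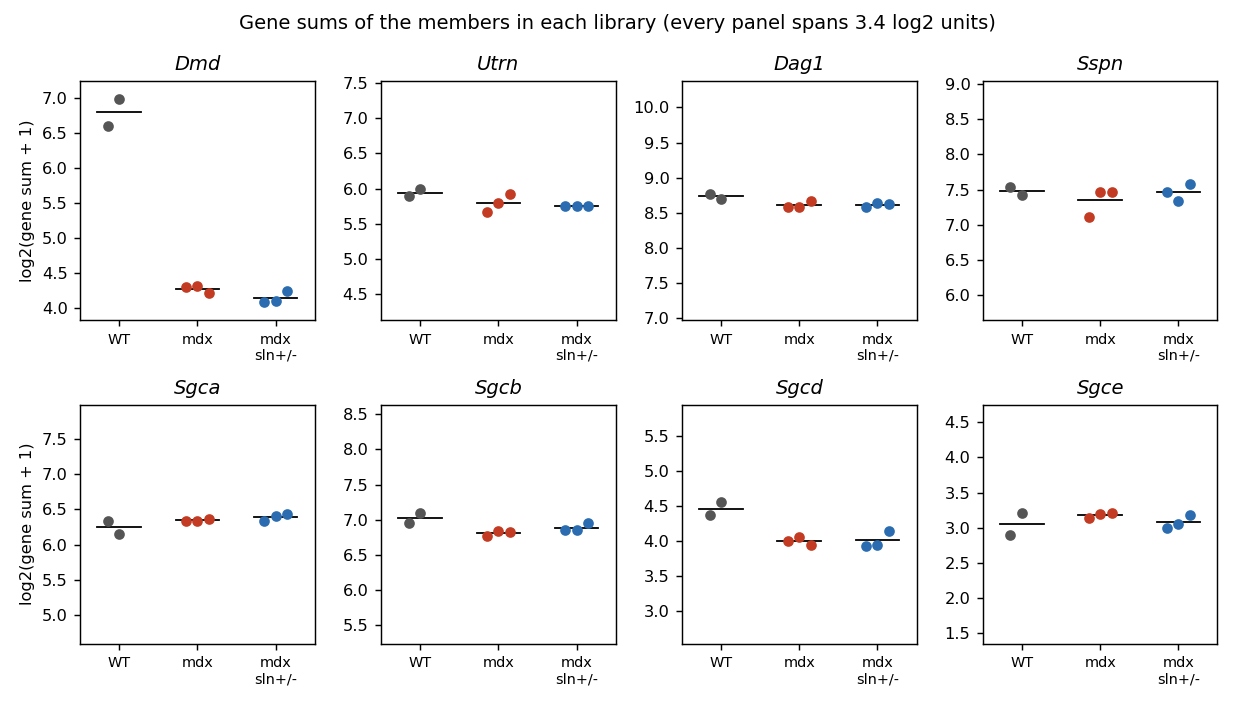
Gene sum of each member, log2(sum + 1), in the 8 libraries (points) with group means (lines); every panel spans the same number of log2 units. Dmd lies at 6.60 and 6.98 in WT and between 4.09 and 4.32 in the 6 mutant libraries, and the other 7 members vary over less than 1 unit.

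Dmd had log2 levels of 6.60 in WT 1 and 6.98 in WT 2. In mdx it lay at 4.22 (mdx 3), 4.30 (mdx 1) and 4.32 (mdx 2), and in mdx sln+/- at 4.09 (replicate 1), 4.10 (replicate 2) and 4.25 (replicate 3). Every mutant library was below both WT libraries, and the 2 mutant groups overlapped. Dmd fell by 2.51 ± 0.12 in mdx, a level 5.70-fold lower (adjusted p = 0.000227), and by 2.65 ± 0.12 in mdx sln+/-, 6.26-fold lower (adjusted p = 0.000177). The call held in every alternative tried, with changes from -2.70 to -2.29 in mdx and from -2.83 to -2.40 in mdx sln+/-. The RNA was reduced in the mutants but measured in all 6 of their libraries.

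Utrn, the paralog that can stand in for dystrophin at the membrane, did not pass the test in either mutant group. It lies on chromosome 10 from 12382188 to 12869365, minus strand. Its log2 levels were 5.89 and 5.99 in WT, 5.67, 5.79 and 5.92 in mdx, and 5.75 in all 3 mdx sln+/- libraries. Values of mdx overlapped those of WT, whereas those of mdx sln+/- were all lower. The change was -0.15 ± 0.09 in mdx (95% interval -0.36 to 0.06, adjusted p = 0.291) and -0.19 ± 0.09 in mdx sln+/- (-0.40 to 0.02, adjusted p = 0.176). Over the alternatives the change lay between -0.24 and -0.06 in mdx and between -0.25 and -0.13 in mdx sln+/-.

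Dag1 encodes both subunits of dystroglycan and lies on chromosome 9 from 108204634 to 108263958, minus strand. Dag1 had log2 levels of 8.77 and 8.70 in WT, 8.58, 8.59 and 8.67 in mdx mice, and 8.59, 8.64 and 8.62 in mdx sln+/-. Both WT libraries were above all mutant libraries, by little. The change was -0.12 ± 0.07 in each mutant group, with adjusted p = 0.276 in mdx and 0.268 in mdx sln+/-, so it was not called.

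Of the 4 sarcoglycan members, Sgcd was called and Sgca, Sgcb and Sgce were not. Sgcd encodes delta-sarcoglycan, a core subunit of the striated muscle complex, and lies on chromosome 11 from 46896253 to 47988969, minus strand. Its log2 levels were 4.37 and 4.55 in WT, 3.95 to 4.06 in the mdx libraries, and 3.93, 3.95 and 4.15 in mdx sln+/-. All 6 mutant libraries were below both WT libraries. Sgcd fell by 0.46 ± 0.11 in mdx, a linear change of -27.4% (adjusted p = 0.0301), and by 0.45 ± 0.11 in mdx sln+/-, -26.9% (adjusted p = 0.0319).

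The Sgcd call depended on single libraries, while its direction did not. In mdx it was lost without WT 2 (-0.37, adjusted p = 0.137), mdx 1 (-0.46, 0.0836), mdx 3 (-0.42, 0.0809) or mdx sln+/- 1 (-0.45, 0.0670). In mdx sln+/- it was lost without WT 2 (-0.36), mdx sln+/- 1 (-0.39, 0.158), mdx 2 (-0.42, 0.0572) or mdx sln+/- 2 (-0.42, 0.0569). The last 2 fits in effect leave out the same libraries, mdx 2 and mdx sln+/- 2. Leaving out WT 2 and mdx sln+/- 3 together gave -0.39 (0.141) in mdx and -0.46 (0.156) in mdx sln+/-.

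Sgcb encodes beta-sarcoglycan, the other core subunit, and lies on chromosome 5 from 73632749 to 73647790, minus strand. Sgcb had log2 levels of 6.95 and 7.10 in WT, 6.77, 6.84 and 6.82 in mdx mice, and 6.85, 6.86 and 6.95 in mdx sln+/-. The mdx libraries were the lowest and did not overlap either other group. The change in mdx was -0.21 ± 0.08 (adjusted p = 0.105) and in mdx sln+/- -0.13 ± 0.08 (adjusted p = 0.254), neither of them called. Without a term for the contrast removed before deposit, Sgcb in mdx was called at the same -0.21 (adjusted p = 0.0393).

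Sgca encodes alpha-sarcoglycan, which is made in striated muscle, and lies on chromosome 11 from 94962791 to 94976327, minus strand. It overlaps Hils1 on the opposite strand, and whether counting used strand is not given. Its log2 levels were 6.34 and 6.15 in WT, 6.33 to 6.36 in the mdx libraries and 6.34 to 6.43 in mdx sln+/-. The changes of 0.10 ± 0.08 in mdx (adjusted p = 0.428) and 0.14 ± 0.08 in mdx sln+/- (adjusted p = 0.245) were not called.

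Sgce encodes epsilon-sarcoglycan, the more widely expressed relative of alpha-sarcoglycan, and lies on chromosome 6 from 4674350 to 4747207, minus strand. Levels of Sgce were 2.89 and 3.21 in WT, 3.14 to 3.21 in mdx mice and 2.99 to 3.18 in mdx sln+/-. WT 1 was the lowest library and WT 2 was level with the highest, so the groups could not be parted. The change was 0.13 ± 0.12 in mdx (adjusted p = 0.509) and 0.02 ± 0.12 in mdx sln+/- (adjusted p = 0.908). Without WT 1 the values were -0.03 and -0.13.

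Sspn encodes sarcospan, a protein with 4 membrane passes that binds the sarcoglycans, and lies on chromosome 6 from 145931641 to 145965223, plus strand, where it overlaps the antisense gene Sspnos. Its log2 levels were 7.54 and 7.42 in WT, 7.11, 7.47 and 7.47 in the mdx libraries, and 7.47, 7.34 and 7.58 in mdx sln+/-. The 3 groups overlapped, and mdx 1 was the lowest library. The change was -0.13 ± 0.14 in mdx (adjusted p = 0.553), which became 0.04 without mdx 1, and -0.01 ± 0.14 in mdx sln+/- (adjusted p = 0.948).

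Against WT, mdx sln+/- gave the same pair of called members as mdx, Dmd and Sgcd, both lower. These comparisons share both WT libraries. Over all genes, 15.9% were called in mdx sln+/- against WT, 9.41% higher and 6.50% lower. The members' median change was -0.13, against 0.053 over all genes. The groups did not overlap for 4 members, Dmd, Utrn, Dag1 and Sgcd, all lower, where 59.8% of all genes did not overlap, 36.4% higher and 23.5% lower.

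Between mdx sln+/- and mdx, the loss of 1 Sln allele in mdx, 0 of 8 members were called, and 0 of all genes (0%). At an unadjusted p under 0.05, 1186 genes passed in limma, the only tool run, and 0 of the members were among them, whose smallest unadjusted p was 0.235 for Dmd. Dmd differed by -0.14 ± 0.11 (95% interval -0.38 to 0.11), Sspn by 0.11 ± 0.12 (-0.16 to 0.39), Sgce by -0.10 ± 0.11 (-0.35 to 0.14) and Sgcb by 0.08 ± 0.06 (-0.08 to 0.23). Utrn, Dag1, Sgca and Sgcd differed by between -0.04 and 0.04. Sgcb was the single member whose 2 groups did not overlap, higher in mdx sln+/-, where 24.8% of all genes did not overlap, with 16.8% of all genes higher. The intervals allow changes of up to 0.39 in size for these 8 members.

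**Figure D2:**
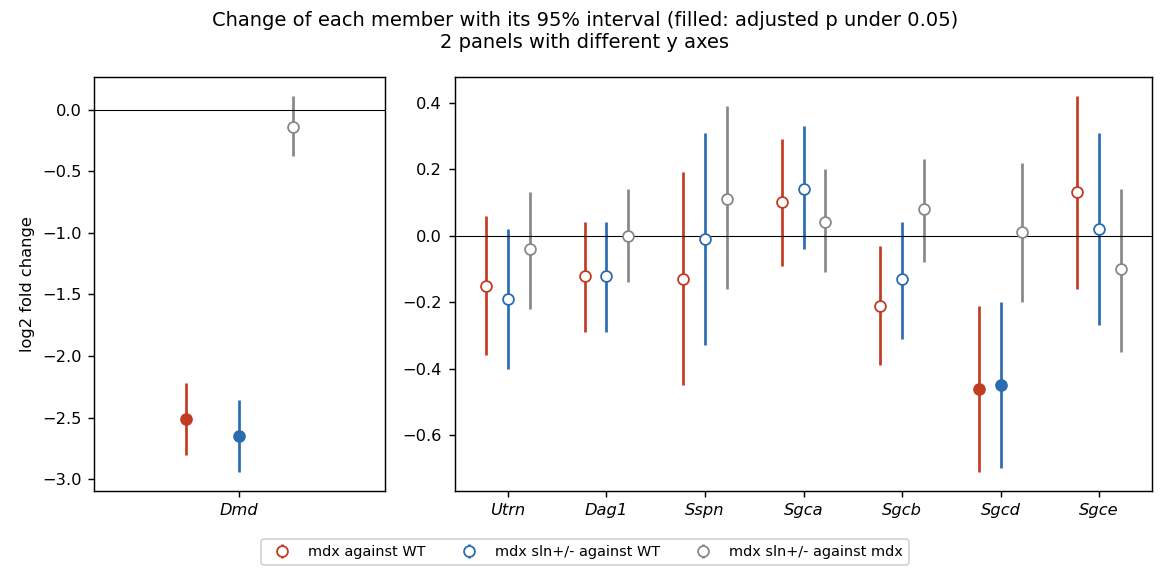
Log2 fold change of each member in the 3 comparisons with its 95% interval from limma; filled points have an adjusted p under 0.05, and the panel of Dmd has its own axis. Dmd (-2.51 and -2.65) and Sgcd (-0.46 and -0.45) are called against WT, and no member is called between mdx sln+/- and mdx.

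Some transcripts moved further than their gene sums, such as Dmd-203 and Dag1-202, and others less, such as Dmd-201. In mdx, 6 of the 25 tested member transcripts fell and 0 rose, where 8.29% of all transcripts were called, 4.23% higher and 4.07% lower. They were Dmd-203, Dmd-201, Dmd-211, Dag1-201, Dag1-202 and Sgca-205. In mdx sln+/-, 9 fell and 0 rose, where 10.1% of all transcripts were called, 5.39% higher and 4.74% lower. They were the same 6 with Dag1-203, Sgca-204 and Sgcd-201. Between mdx sln+/- and mdx 0 were called, of all transcripts 0%, with 2670 transcripts at an unadjusted p under 0.05. Dmd-211 and Sgce-210 passed the filter on low values through the WT libraries alone, so that a lower value in the mutants was built into their selection. Without these 2 transcripts, 5 of 23 fell in mdx and 8 of 23 in mdx sln+/-. Transcripts of 1 gene share exons and so are not independent. The share of all transcripts whose groups did not overlap is not given, so such gaps below only describe the values.

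**Figure D3:**
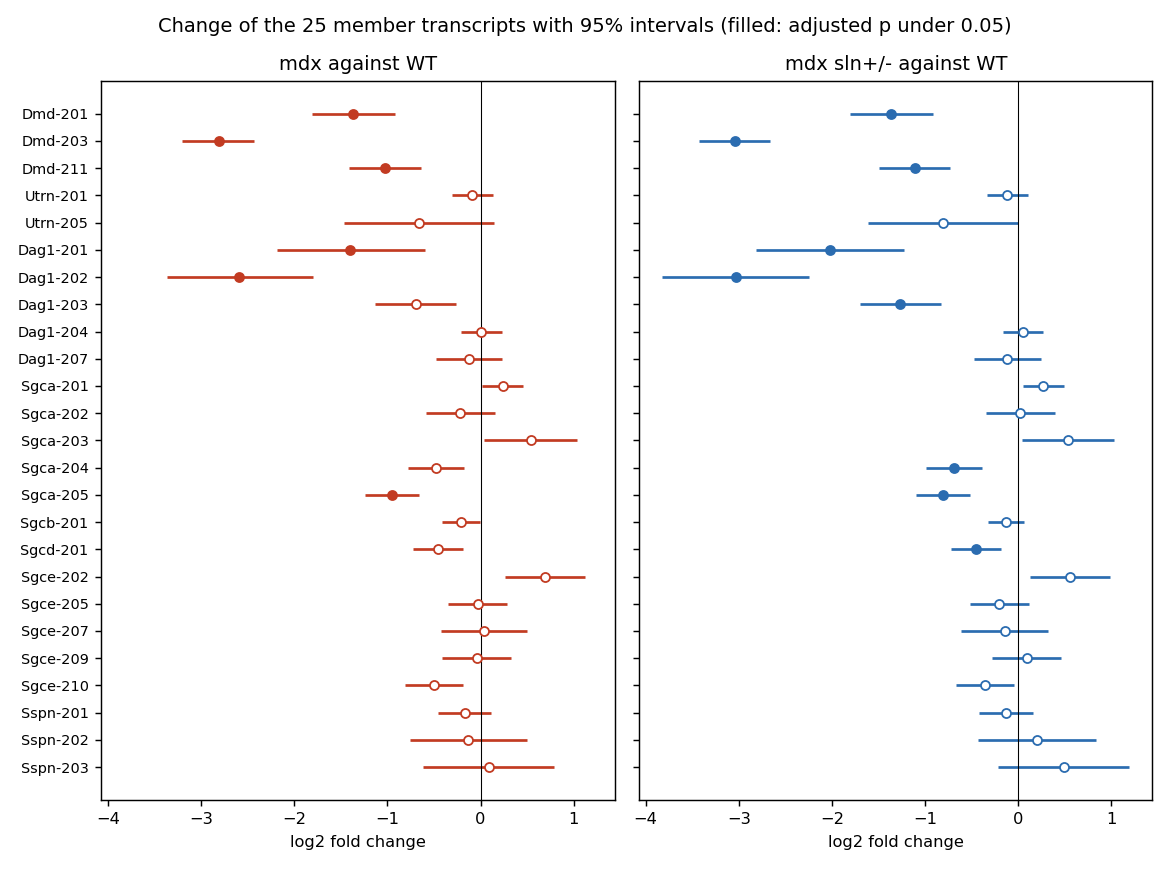
Log2 fold change of the 25 tested member transcripts against WT with 95% intervals; filled points have an adjusted p under 0.05. Transcripts of Dmd and Dag1 reach the lowest values, down to -2.81 for Dmd-203 in mdx and -3.04 in mdx sln+/-, while Dag1-204 stays at 0.01 and 0.05.

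The values assigned to the full-length and the short Dmd form were both lower in the mutants. No base of Dmd-201 lies outside the other listed forms (0.0%), so its level rests on how reads were assigned. Dmd-203 had log2 values of 6.22 and 6.77 in WT, 3.69, 3.68 and 3.67 in mdx mice, and 3.35, 3.45 and 3.56 in mdx sln+/-. The 3 groups did not overlap, with mdx sln+/- the lowest. It fell by 2.81 ± 0.17 in mdx (7.03-fold lower, adjusted p = 0.000638) and by 3.04 ± 0.17 in mdx sln+/- (8.24-fold lower, adjusted p = 0.000280), and the difference of -0.23 ± 0.14 between the mutants was not called. Dmd-201 had log2 values of 4.33 and 3.72 in WT, 2.63, 2.78 and 2.59 in the mdx libraries, and 2.68, 2.55 and 2.76 in mdx sln+/-. It fell by 1.37 ± 0.19 in each mutant group (2.58-fold lower), with adjusted p = 0.0115 in mdx and 0.0102 in mdx sln+/-. Without mdx sln+/- 1 the latter call was lost (-1.38, adjusted p = 0.0596). It was also lost without WT 2 and mdx sln+/- 3 together (-1.74, 0.0544).

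Dmd-211, a form with a retained intron, had values of 1.96 and 1.77 in WT and 0.61 to 0.97 in the mutants. It passed the filter through WT alone, and its values describe it without support from the test. Its change was -1.03 ± 0.17 in mdx and -1.11 ± 0.17 in mdx sln+/-. The latter was -1.17 without mdx sln+/- 1 and -1.12 without mdx sln+/- 3. Dmd-202, which shares the first base of Dmd-201 and was not tested, had 0.72 and 1.79 in WT and 0.47 to 0.88 in the mutants.

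The value assigned to Dmd-203 fell by more than that of Dmd-201, and Dmd-203 made up less of the Dmd sum in every mutant library than in either WT library. The shares of both forms rest on how reads were assigned. Dmd-203 was 81.4% ± 7.00 of the gene sum in WT (SD, n = 2), 64.1% ± 2.04 in mdx mice and 59.6% ± 1.99 in mdx sln+/- (SD, n = 3). Dmd-201 was 14.8% ± 7.16, 29.0% ± 1.66 and 32.0% ± 1.96. The WT libraries lay far apart, with Dmd-201 at 19.9% in WT 1 and 9.77% in WT 2, but both were below the mutant range of 27.7% to 33.9%. A test of each transcript against the rest of its gene gave Dmd-203 -1.37 ± 0.27 in mdx (adjusted p = 0.0646) and -1.62 ± 0.27 in mdx sln+/- (adjusted p = 0.0320). For Dmd-201 it gave 1.38 ± 0.32 (adjusted p = 0.0864) and 1.57 ± 0.32 (adjusted p = 0.0496). The share changes passed the threshold in mdx sln+/- and not in mdx, and the differences between the mutants were not called (-0.25 ± 0.23 for Dmd-203, 0.19 ± 0.28 for Dmd-201). In mdx sln+/- the Dmd-203 share call was lost without WT 2 (-1.16), mdx 2 (-1.67, adjusted p = 0.0609) or any 1 of the mdx sln+/- libraries (-1.67 to -1.54, up to 0.173). The fits without mdx 2 or mdx sln+/- 2 in effect leave out both. The Dmd-201 share call held only without WT 1 among the 8 libraries left out in turn (0.99 to 2.14 over the 8, adjusted p up to 0.237). Without WT 1 both shares were also called in mdx (-1.84, adjusted p = 0.0380, and 1.95, 0.0386).

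**Figure D4:**
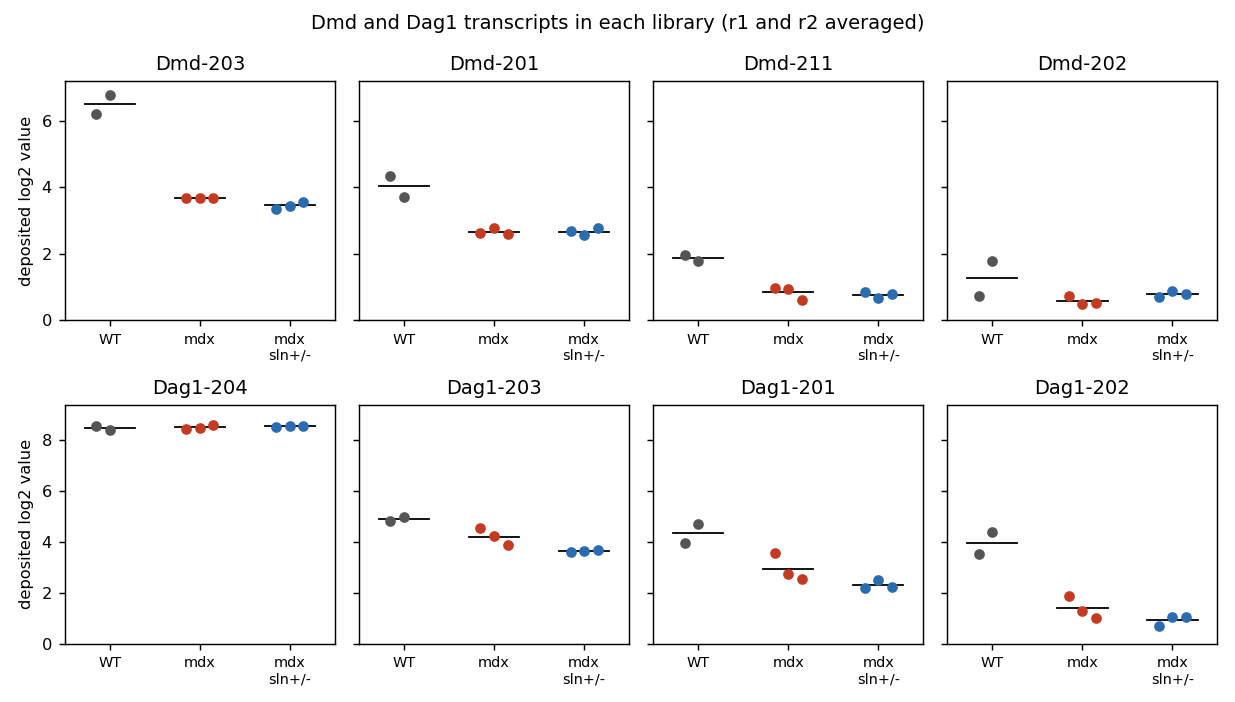
Deposited log2 value of 4 Dmd transcripts (top) and 4 Dag1 transcripts (bottom) in the 8 libraries (points) with group means (lines). All Dmd forms but Dmd-202 and all shown Dag1 forms but Dag1-204 are below both WT libraries in the 6 mutant libraries. Groups were separated for 51.4% of all genes in mdx and 59.8% in mdx sln+/-, and this share is not given for transcripts.

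Beneath the small change of the Dag1 sum, the values assigned to minor transcripts were lower in the mutants. Of the bases of Dag1-201, Dag1-202 and Dag1-203, 0.6%, 0.0% and 3.3% lie in no other listed form. Their separate levels therefore rest on how reads were assigned. Dag1-201, Dag1-202, Dag1-203 and Dag1-204 have the same coding sequence of 2679 bases and start within 222 bases of each other, and they differ in their untranslated parts. Dag1-204, the main form, was 84.5% ± 4.41 of the sum in WT, 92.8% ± 2.39 in the mdx libraries and 95.5% ± 0.173 in mdx sln+/- (SD). Its log2 values were 8.58 and 8.41 in WT, 8.43 to 8.60 in mdx mice and 8.53 to 8.57 in mdx sln+/-, with changes of 0.01 ± 0.09 and 0.05 ± 0.09 that were not called.

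Dag1-202 had log2 values of 3.54 and 4.41 in WT, 1.88, 1.27 and 1.02 in the mdx libraries, and 0.70, 1.06 and 1.06 in mdx sln+/-. It fell by 2.59 ± 0.34 in mdx (6.01-fold lower, adjusted p = 0.00936) and fell by 3.03 ± 0.34 in mdx sln+/- (8.20-fold lower, adjusted p = 0.00547). Without WT 2 the change in mdx was -2.15 and not called (adjusted p = 0.0504). Without WT 2 and mdx sln+/- 3 together, Dag1-202 changed by -2.16 in mdx and -2.68 in mdx sln+/-, with neither called. No base of Dag1-202 is absent from the other listed forms (0.0%), so its level rests on how reads were assigned.

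Dag1-201 had 3.97 and 4.71 in WT, 3.55, 2.75 and 2.53 in mdx mice, and 2.21, 2.51 and 2.23 in mdx sln+/-. It fell by 1.40 ± 0.34 in mdx (adjusted p = 0.0469), a call lost in 15 of the alternatives. Among them were 7 of the 8 that left out 1 library, all but mdx 1 (-1.83 to -1.03 over the 8). Of these 7, the fits without mdx 2 and without mdx sln+/- 2 are in effect 1 fit. In mdx sln+/- it fell by 2.02 ± 0.34 (adjusted p = 0.0154), lost without WT 2 (-1.65, 0.0816), mdx sln+/- 1 (-1.94, 0.0794) or mdx sln+/- 3 (-1.96, 0.0648).

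Dag1-203 had 4.82 and 4.99 in WT, 4.54, 4.22 and 3.88 in the mdx libraries, and 3.59, 3.63 and 3.69 in mdx sln+/-, so that the 3 groups did not overlap. Its change was -0.69 ± 0.19 in mdx (adjusted p = 0.0616), which was called only without mdx 1 (-0.93, 0.0297) among the libraries left out in turn, and it fell by 1.27 ± 0.19 in mdx sln+/- (adjusted p = 0.0113). That call was lost without WT 2 (-1.19, 0.0627) or mdx sln+/- 1 (-1.24, 0.0646). Between mdx sln+/- and mdx it differed by -0.58 ± 0.16 (95% interval -0.95 to -0.21, adjusted p = 0.435), which was not called. Dag1-207, a short form, ranged from 1.08 to 1.46 over all libraries.

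Against the rest of its gene, Dag1-202 was lower in mdx (-2.51 ± 0.38, adjusted p = 0.0447). In mdx sln+/- the shares of Dag1-201, Dag1-202 and Dag1-203 were lower, with changes between -2.96 and -1.20, that of Dag1-207 changed by 0.00 ± 0.18 (adjusted p = 0.998), and that of Dag1-204 was higher (1.87 ± 0.31, adjusted p = 0.0320). Over the members, 3 of 23 tested transcript shares were called in mdx and 9 in mdx sln+/-, where 0.766% of all shares were called in mdx (0.429% higher, 0.337% lower) and 3.24% in mdx sln+/- (1.72% higher, 1.52% lower). Without Dmd-211 and Sgce-210 these counts were 2 and 8 of 21. Shares of 1 gene are tied, since a rise of 1 form lowers the rest, so these calls are not independent. All 9 in mdx sln+/- were of Dag1, Dmd and Sgca. The calls in mdx were Dag1-202 and Sgca-205, both lower, and Dmd-211, higher. Dmd-211 made up 3.00% and 1.92% of the Dmd sum in WT and 2.95% to 5.13% in mdx, so its percentages overlapped. Its share change of 1.51 ± 0.23 (adjusted p = 0.0433) became 0.95 (0.228) with a pseudocount of 0.1, so at these low values it depends on the pseudocount. Between mdx sln+/- and mdx the count was 0, of all shares 0%, with 2317 shares at an unadjusted p under 0.05. In the fits that follow, leaving out mdx 2 or mdx sln+/- 2 in effect leaves out both. The share calls of the members in mdx fell to 0 when any 1 of 7 libraries was left out, all but WT 1. Those in mdx sln+/- fell to 0 without WT 2, mdx 2 or any 1 of the mdx sln+/- libraries.

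Sgca-205, which has the coding sequence of Sgca-201 and Sgca-202, had log2 values of 3.17 and 3.25 in WT, 2.30, 2.19 and 2.28 in mdx mice, and 2.43, 2.46 and 2.30 in mdx sln+/-. Every mutant library was lower than both WT libraries. No base of Sgca-205 is absent from the other listed forms (0.0%), so its level and share rest on how reads were assigned. It fell by 0.95 ± 0.13 in mdx (adjusted p = 0.00954) and by 0.81 ± 0.13 in mdx sln+/- (adjusted p = 0.0129). Both calls were lost without WT 2 (-0.91, 0.0531, and -0.77, 0.0601), the latter also without mdx sln+/- 1 (-0.83, 0.0827) or mdx sln+/- 3 (-0.74, 0.0703). It was 11.1% ± 1.60 of the Sgca sum in WT, 4.71% ± 0.205 in the mdx libraries and 5.17% ± 0.470 in mdx sln+/- (SD), and its share was lower in mdx (-1.15 ± 0.17, adjusted p = 0.0433) and mdx sln+/- (-1.05 ± 0.17, adjusted p = 0.0312).

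Sgca-201, the main form at 73.8% to 83.9% of the sum, had changes of 0.24 ± 0.10 and 0.27 ± 0.10 that were not called. Sgca-204, a short form, averaged 1.55 ± 0.07 in WT (SD, n = 2) and lay at 1.01 to 1.12 in mdx and 0.81 to 0.91 in the mdx sln+/- libraries. Its change was -0.48 ± 0.13 in mdx (adjusted p = 0.0612), and it fell by 0.69 ± 0.13 in mdx sln+/- (adjusted p = 0.0203). That call was lost without WT 2 (-0.63, 0.0840), mdx sln+/- 1 (-0.72, 0.115) or mdx sln+/- 3 (-0.69, 0.0963). Sgca-202 and Sgca-203 were not called. Of the bases of Sgca-201 and Sgca-204, 0.0% and 3.1% lie in no other listed form, so their levels rest on read assignment too.

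Sgcb and Sgcd each had 1 listed transcript, so their transcript and gene values are the same. Sgcd-201 had an adjusted p of 0.0508 in mdx and 0.0488 in mdx sln+/- among transcripts, and the latter call was lost when any 1 of the 8 libraries was left out (-0.55 to -0.36, adjusted p 0.0589 to 0.237). Of the 5 Sgce transcripts 0 were called, though Sgce-202 was 19.4% ± 4.96 of the sum in WT, 36.1% ± 1.49 in mdx mice and 34.6% ± 1.23 in mdx sln+/- (SD). Its share differed by 0.85 ± 0.17 (adjusted p = 0.0650) and 0.79 ± 0.17 (adjusted p = 0.0531). Sgce-202 has no base outside the other listed forms (0.0%), so its share rests on how reads were assigned.

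The 2 Utrn transcripts, which have the same coding sequence of 10290 bases, and the 3 Sspn transcripts were not called. Utrn-201 made up 87.0% to 96.3% of the Utrn sum, with changes of -0.09 ± 0.09 and -0.12 ± 0.09. Utrn-205 had log2 values of 1.93 and 3.19 in WT and 1.57 to 2.10 in the mutants, with WT 2 above all other libraries. Without WT 1 it was called lower in mdx (-1.29, adjusted p = 0.0291) and mdx sln+/- (-1.43, 0.0209). Sspn-201 made up 73.5% to 85.2% of the Sspn sum. Sspn-203 had 4.44 and 4.56 in WT, 3.95, 4.66 and 5.14 in the mdx libraries, and 4.91 to 5.06 in mdx sln+/-, and its changes of 0.09 ± 0.30 and 0.49 ± 0.30 were not called. The latter was called without mdx 1 (0.58, adjusted p = 0.0273) and with only the 2 groups compared (0.52, 0.0348).

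Other genes of the dystrophin complex, its matrix ligands, its glycosylation and its membrane neighbours formed a list of 42, of which 34 were tested. In mdx 6 rose, 1 fell and 27 were not called, with a median change of 0.04 against 0.020 over all genes. The share of 7 in 34 can be read against the 15.1% of all genes called. In mdx sln+/- 5 rose, 1 fell and 28 were not called, with a median of 0.10 against 0.053, where 15.9% of all genes were called. Between mdx sln+/- and mdx 0 were called. The count in mdx became 2 without WT 2, 3 without mdx 1 and 4 without mdx sln+/- 1. That in mdx sln+/- became 1 without mdx sln+/- 1 and 3 without mdx sln+/- 3.

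**Figure D5:**
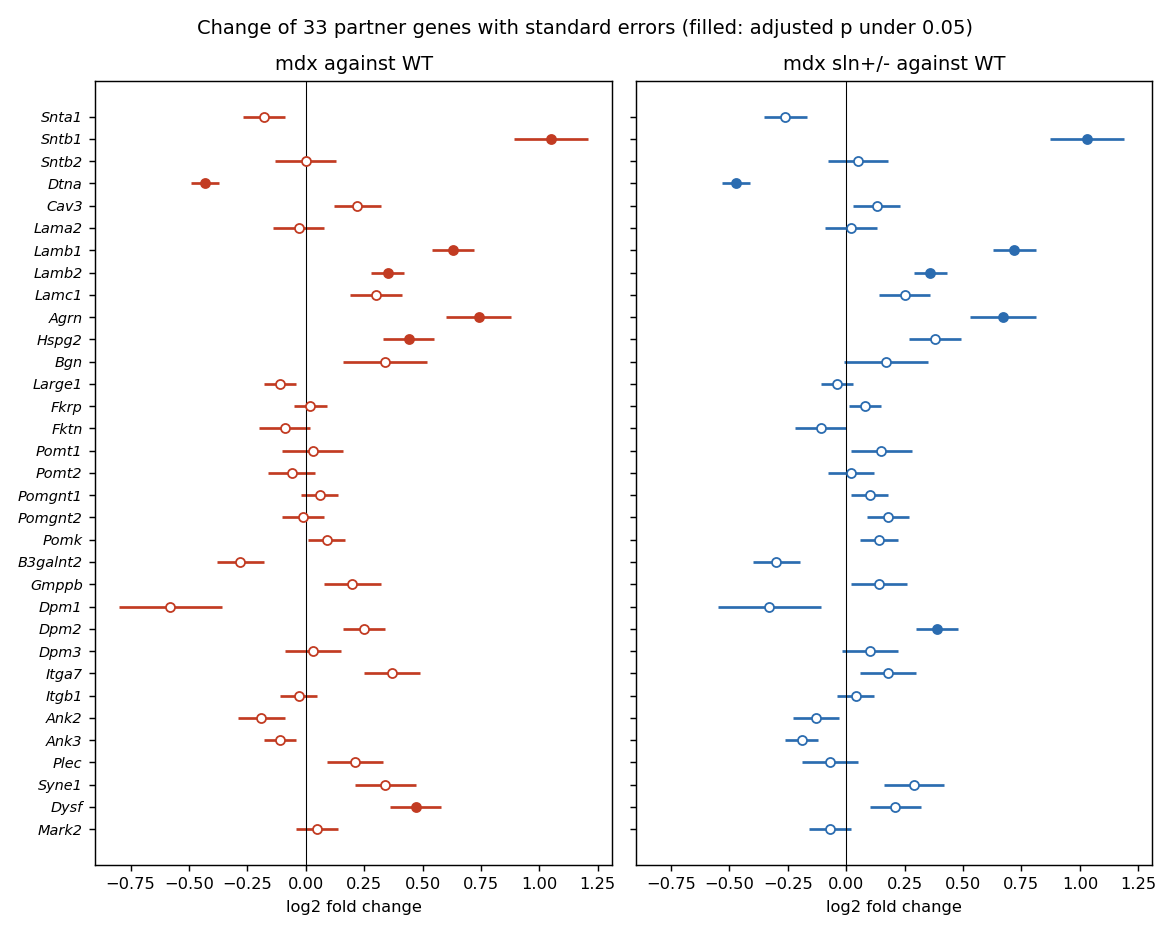
Log2 fold change of 33 of the 34 tested partner genes against WT with standard errors; filled points have an adjusted p under 0.05. Sntb1 is the highest at 1.05 and 1.03, and Dtna is the called gene below 0 at -0.43 and -0.47.

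Among the cytoplasmic partners, Sntb1, the gene of beta-1-syntrophin, and Dtna, that of alpha-dystrobrevin, changed in opposite directions. Sntb1 had log2 levels of 1.60 and 1.66 in WT, 2.41, 2.80 and 2.84 in mdx mice, and 2.63, 2.55 and 2.82 in mdx sln+/-. It rose by 1.05 ± 0.16 in mdx (adjusted p = 0.00985) and by 1.03 ± 0.16 in mdx sln+/- (adjusted p = 0.00979). Sntb1 levels were low, and over the alternatives its change ranged from 0.56 to 1.33 in mdx and from 0.54 to 1.31 in mdx sln+/-. Dtna had 6.07 and 6.02 in WT and 5.56 to 5.63 in the 6 mutant libraries. It fell by 0.43 ± 0.06 in mdx (adjusted p = 0.00831) and by 0.47 ± 0.06 in mdx sln+/- (adjusted p = 0.00664). For both genes the mutant libraries lay clear of WT. Without WT 2 and mdx sln+/- 3 together, neither gene was called in either mutant group. Sntb1 then had 1.06 in mdx and 0.96 in mdx sln+/-, and Dtna had -0.46 and -0.51. Without WT 2, Sntb1 in mdx had 1.09 (adjusted p = 0.0502), and without mdx sln+/- 1 the changes in mdx sln+/- were 1.06 for Sntb1 and -0.47 for Dtna (adjusted p = 0.0552 and 0.0537).

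The list held 7 genes of matrix proteins, a grouping made after their values were seen, of which 4 were called higher in mdx and 3 in mdx sln+/-. Over all genes, 8.15% were called higher in mdx and 9.41% in mdx sln+/-. Because the values were known when the group was formed, its counts cannot be tested against these shares. The called genes were the laminin chains Lamb1 and Lamb2 and agrin (Agrn) in both, and perlecan (Hspg2) in mdx. Lamb1 had levels of 5.61 and 5.54 in WT and 6.15 to 6.44 in the mutants, and rose by 0.63 ± 0.09 in mdx and 0.72 ± 0.09 in mdx sln+/- (adjusted p = 0.0088 and 0.0064). Leaving out WT 2 and mdx sln+/- 3 together gave Lamb1 0.58 in mdx and 0.59 in mdx sln+/-, with neither called. Lamb2 rose by 0.35 ± 0.07 and 0.36 ± 0.07 (adjusted p = 0.0231 and 0.0215). Agrn rose by 0.74 ± 0.14 and 0.67 ± 0.14 (adjusted p = 0.0178 and 0.023). Hspg2 rose by 0.44 ± 0.11 in mdx (adjusted p = 0.043) and had 0.38 ± 0.11 in mdx sln+/- (adjusted p = 0.0601, not called). The 3 others were not called. Lama2, the main laminin alpha chain of muscle, had -0.03 ± 0.11 and 0.02 ± 0.11, the laminin chain Lamc1 had 0.30 ± 0.11 and 0.25 ± 0.11 (adjusted p = 0.101 and 0.145), and biglycan (Bgn) had 0.34 ± 0.18 and 0.17 ± 0.18 (adjusted p = 0.234 and 0.548). Without WT 2, Lamb1 in mdx had 0.60 (adjusted p = 0.0519). Agrn lost its call in both comparisons without WT 2, with 0.53 and 0.46 (adjusted p = 0.0643 and 0.0833), in mdx also without mdx 1 or mdx 3, and in mdx sln+/- also without mdx sln+/- 1 or 3. The Lamb2 calls were lost without WT 1, WT 2 or mdx sln+/- 1, in mdx also without mdx 1 and in mdx sln+/- also without mdx sln+/- 3, with changes of 0.31 to 0.40. Hspg2 kept its call only without mdx 2 or mdx sln+/- 2, which are in effect the same fit. In the same libraries the summed macrophage markers given above were higher than in WT, Emcn of the endothelium had 0.34 and 0.40, and Col1a1 of fibroblasts had 0.92 and 0.90, both genes called in each mutant group. Each was the only called marker of the 5 on its list, where 4 changes were above 0 and 1 was below. The part of these cell types in the matrix changes was not tested.

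Dysf, the gene of the membrane repair protein dysferlin, rose by 0.47 ± 0.11 in mdx (adjusted p = 0.0318) and had 0.21 ± 0.11 in mdx sln+/- (adjusted p = 0.221). The difference between the mutants was -0.26 ± 0.09 (adjusted p = 0.578) and was not called. Dysf was no longer called without WT 2 (0.36, adjusted p = 0.147), mdx 1, mdx sln+/- 1 or mdx sln+/- 3. Dpm2, which serves the supply of mannose for glycosylation, rose by 0.39 ± 0.09 in mdx sln+/- (adjusted p = 0.0275) and had 0.25 ± 0.09 in mdx (adjusted p = 0.0969). The Dpm2 call held only without mdx 1 or mdx 3 among the 8 libraries left out in turn.

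The genes with the pattern most like Dmd were sought among 8824 genes with a mean log2 level of at least 3, by the root mean square difference of levels centred over the 8 libraries. They were Rps13-ps2 (0.133), a pseudogene that can share reads with its parent gene, Atcayos (0.194), an opposite-strand gene, and Dusp18 (0.340), a phosphatase gene. Their changes in mdx against WT were -2.41, -2.73 and -2.22. For Utrn they were Gstm7 (0.023), Wasl (0.026) and Naa15 (0.030), with changes of -0.15, -0.19 and -0.16 that were not called. A small difference for Utrn says only that all these genes vary little.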

How the data were processed

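The 8 libraries of left ventricle RNA were grouped by the labels' genotype. The submitters' processing notes name STAR 2.6.1, Partek, limma and the build mm10, and the roles of these tools are not given in the sources used here. The authors deposited log2 values per transcript in 2 columns a library, r1 and r2, per the file headers. What r1 and r2 stand for is not given. They correlated at 0.981 to 0.987 and were averaged, so they count as 1 replicate. Each of the 16 value columns matched 1 library. The form log2(abundance + 1) is an inference, since 0 deposited log2 values are at or below 0.

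Values were turned back to linear abundance, summed by gene identifier and expressed as log2(sum + 1), a pseudocount of 1. Genes or transcripts that reached 1 in 2 or more libraries were tested with limma 3.58.1 in R 4.3.3, with an empirical Bayes trend, all 8 libraries in 1 fit and Benjamini-Hochberg adjustment (threshold 0.05). Transcript shares were tested as log2(transcript + 1) minus log2(rest of the gene + 1). In every transcript, mdx 2 and mdx sln+/- 2 have the same mean as the other 4 mutant libraries (largest difference 5.12e-05, where other such contrasts had SDs of 0.127 to 0.199). This contrast was therefore removed before deposit, and it was fitted as a term, which leaves 4 residual degrees of freedom. The source of the contrast is not given. Where mdx 2 or mdx sln+/- 2 is left out, the term fits the other of them exactly, so the fit in effect leaves out both. With only the 2 groups compared, the term fits mdx 2 or mdx sln+/- 2 exactly, and that library adds nothing to the change.

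The scripts were tested on simulated data. Values were prepared with pandas 2.3.3 and numpy 2.4.6 in Python 3.11.15, and figures with matplotlib 3.10.9. Of the file's transcripts 32946 matched GENCODE M21. Members, lists and the rule for named genes were chosen with earlier results of these data known. The rule names all members with their transcripts, the called partner genes, and the 3 genes most like Dmd and Utrn. Lama2, Lamc1, Bgn, Emcn, Col1a1, Ckm and Acta1 were named in addition after their values were seen. Alternatives were the model terms (group only, replicate block, style of library name), median-ratio scaling, filters, pseudocounts of 0.1 and 5, r1 or r2 alone, only the 2 groups compared, no trend, protein-coding transcripts only, and libraries left out. Of the partner genes, 1 that was tested and counted is not reported here by name.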

Additional observations from a re-analysis of the deposited data

How the results depend on the processing

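Dmd was called lower against WT in every alternative. With only the 2 groups compared, the term for the removed contrast fits mdx 2 or mdx sln+/- 2 exactly, so these fits also lack that library. A fit without mdx 2 or mdx sln+/- 2 in effect leaves out both. Among members, 2 were called in each comparison with WT. In mdx it became 3 with group only, where Sgcb was also called. The counts became 1 and 1 with the style of library name as a term, 1 and 1 with only the 2 groups compared, 1 and 1 without WT 2 and mdx sln+/- 3, and 1 to 2 when each library was left out (mdx and mdx sln+/- in turn). All genes called then fell from 2080 and 2193 to 559 and 711, to 529 and 2010, and to 126 and 39. They rose to 3798 and 3996 with group only. With each library left out they ranged from 579 to 1819 in mdx and from 316 to 2410 in mdx sln+/-. Member transcripts called, 6 and 9, became 11 in mdx with group only, 5 in mdx sln+/- with r1 alone, 3 in mdx with only the 2 groups compared, and 2 and 1 without WT 2 and mdx sln+/- 3. Leaving out each library gave 2 to 7 and 2 to 9. Transcript shares called, 3 and 9, became 10 in mdx with group only, 0 and 0 with name style, 1 in mdx with a mean value of at least 5, 0 and 4 with a pseudocount of 0.1, 6 in mdx with a pseudocount of 5, 0 and 1 with r1 alone, 0 and 0 with r2 alone, 0 and 1 with only the 2 groups compared, and 0 and 0 without WT 2 and mdx sln+/- 3. Leaving out each library gave 0 to 5 and 0 to 7. Partner genes called, 7 and 6, became 12 and 10 with group only, 3 and 3 with name style, 2 in mdx with only the 2 groups compared, and 0 and 0 without WT 2 and mdx sln+/- 3. Leaving out each library gave 2 to 8 and 1 to 6. These partner alternatives were added after seeing the data. The cause was not tested.

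The labels do not say that a number marks a shared animal or batch. Deviations of same-numbered libraries correlated at -0.996 to 0.176, but the -0.996 of mdx 2 with mdx sln+/- 2 follows from the removed contrast, so whether the numbers pair the libraries could not be settled from the data. With a replicate block in place of the removed term, 2 members were called in each comparison with WT, and shares called became 0 in mdx and 5 in mdx sln+/-. The block turned Sgce in mdx sln+/- against WT to -0.01.

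Of 2335 alternative values 40 changed sign, all of differences that were not called. Against WT in mdx sln+/-, Sgce became -0.03 with median-ratio scaling and -0.09 with r1 alone, and Sspn 0.10 with name style and 0.05 with only the 2 groups compared. Between the mutants, Dag1 became -0.04 with median-ratio scaling, -0.02 with r1 alone and 0.00 without WT 2 and mdx sln+/- 3, and Sgcd -0.02, -0.01 and -0.07. Without that pair Sgca in mdx became 0.00 and the Utrn-201 share -0.06. Leaving out each library, the Utrn-201 share in mdx ranged from -0.07 to 1.22, called higher without WT 1, Sgce ranged from -0.03 to 0.29 in mdx and from -0.13 to 0.18 in mdx sln+/-, and Sspn from -0.21 to 0.04 and from -0.10 to 0.05. Between the mutants Sspn ranged from -0.02 to 0.24, Dag1 from -0.02 to 0.03, Sgcd from -0.07 to 0.07, Utrn from -0.11 to 0.03, Sntb1 from -0.18 to 0.09, Hspg2 from -0.20 to 0.00 and Lamb2 from -0.03 to 0.04. Lamb2 became -0.03 with median-ratio scaling, -0.01 with r1 alone and -0.02 without WT 2 and mdx sln+/- 3. With 2 WT libraries, depth unknown and all WT library names of 1 style, small changes of the members could not be resolved.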
